A study of Homo sapiens with 16 samples.

Results

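The core of the RAS to ERK cascade was followed at the RNA level through 7 genes, *NRAS* and *HRAS* (RAS), *BRAF* and *ARAF* (RAF), *MAP2K1* and *MAP2K2* (MEK1 and MEK2) and *MAPK3* (ERK1). They were chosen by symbol, and all 7 were found among the 34228 genes of the count table. The lines were 451Lu-R and 1205Lu-R, human melanoma cell lines made resistant to the BRAF inhibitor PLX4032 (vemurafenib) by raising its dose over months. Each line received 2.5 μM corin, an inhibitor of the CoREST complex that combines LSD1 and HDAC blockade, or the vehicle DMSO, for 24 h, giving 4 groups of 2 poly(A) RNA-Seq libraries. All 4 groups therefore share the acquired resistance. The resistant cultures were maintained in 5 μM PLX4032, and when the drug was taken off before DMSO or corin was added is not given in the sources used here. Whether a resistant line is a clone or a pool, and whether the 2 libraries of a group came from separate cultures, is not given there either, so p-values measure only the spread between these libraries. Libraries with PLX4032, alone or with corin, were not tested here.

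The cascade carries growth signals from receptors at the membrane to the nucleus. RAS proteins are membrane-bound GTPase switches that recruit RAF kinases, RAF phosphorylates MEK, and MEK phosphorylates ERK, which then acts on many cytoplasmic and nuclear substrates. In melanoma the cascade is the target of BRAF and MEK inhibitors, and its activity is set largely by mutation, phosphorylation and feedback. A transcript count does not measure that activity, although the RNA of some feedback inhibitors is counted below.

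The libraries held between 9516687 and 11797788 estimated counts, and between 12867 and 14427 genes reached 1 CPM (counts scaled to a fixed library total). The CPM of single genes given below are also scaled with TMM, which adjusts for differences in library composition on the premise that most genes do not change. Changes below are therefore relative to the other RNA of the libraries and are not amounts per cell. The 8 melanocytic markers *MITF*, *SOX10*, *PMEL*, *MLANA*, *TYR*, *TYRP1*, *DCT* and *S100B* summed to between 12100 and 13000 CPM in 451Lu-R, most of it *PMEL*, but single markers shifted with corin there. *MITF* went from between 747 and 763 CPM to between 296 and 298, *SOX10* from between 706 and 738 to between 241 and 244, and *DCT* from 1590 to between 2750 and 2790. In 1205Lu-R the 8 markers summed to between 8.59 and 25.9 CPM, with 3 of the 8 at 0 in both DMSO libraries and 2 of the 8 at 0 in both corin libraries, so the defining melanocytic markers were near absent from that line. Of the markers of dedifferentiated melanoma cells, *NGFR* went from between 0.786 and 1.23 CPM with DMSO to between 360 and 368 with corin in 451Lu-R and from between 5.82 and 6.34 to between 194 and 201 in 1205Lu-R. *AXL* was at 2.57 CPM or less in 451Lu-R and went down in 1205Lu-R, from between 985 and 1010 to between 460 and 468. The leukocyte list moved with corin in 451Lu-R, from between 62.0 and 63.8 to between 91.6 and 92.6 CPM over the 3 of its 4 markers in the table. That sum was nearly all *CD68*, with *PTPRC* at 0.264 CPM or less in every library. The 3 endothelial markers summed to between 1.28 and 27.0 CPM and were higher with corin in both lines, with *VWF* the largest part of that rise, *CDH5* at 0.621 CPM or less throughout and *PECAM1* at 0 in 451Lu-R and at most 10.2 CPM in 1205Lu-R. The 3 of 4 keratinocyte markers in the table summed to between 17.3 and 33.7 CPM, most of it *KRT10*. The part of these marker shifts in the results below was not tested. In bulk RNA, fewer cells of a kind and less RNA per cell cannot be told apart.

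All 7 genes have a RefSeq transcription start in build GRCh38.p14, and the 250 bases before that start were searched on both strands for 8 motifs. The windows of *NRAS*, *HRAS*, *ARAF* and *MAP2K1* are shown. The first 3 genes had the largest falls of the 7 with corin in each line, and *MAP2K1* in 451Lu-R had the largest rise. *MAPK3*, not shown, was also called lower in both lines, by 1.18-fold in 451Lu-R and 1.26-fold in 1205Lu-R. Capitals mark every match on either strand, and no motif searched is part of another. A GC box was searched as GGGCGG, which 42.6% of 35116 windows of this length held. A CCAAT box, searched by those letters, was in 32% of them. An ETS core (CCGGAAG) was in 8.52%. The E-box was searched in the form CACGTG, found in 6.34%. A further form of the E-box, CAGGTG, was found in 17.5%. The CRE (TGACGT) was in 7.1% of windows. The window of *NRAS* lies at chr1:114716772-114717021 on the minus strand and that of *HRAS* at chr11:535577-535826 on the minus strand. The window of *ARAF* is at chrX:47560955-47561204 on the plus strand and that of *MAP2K1* at chr15:66386662-66386911 on the plus strand.
NRAS: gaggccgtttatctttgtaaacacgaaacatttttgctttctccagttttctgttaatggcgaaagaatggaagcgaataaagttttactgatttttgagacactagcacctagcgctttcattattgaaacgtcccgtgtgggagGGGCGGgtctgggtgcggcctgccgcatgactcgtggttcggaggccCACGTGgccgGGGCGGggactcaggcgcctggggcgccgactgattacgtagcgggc
HRAS: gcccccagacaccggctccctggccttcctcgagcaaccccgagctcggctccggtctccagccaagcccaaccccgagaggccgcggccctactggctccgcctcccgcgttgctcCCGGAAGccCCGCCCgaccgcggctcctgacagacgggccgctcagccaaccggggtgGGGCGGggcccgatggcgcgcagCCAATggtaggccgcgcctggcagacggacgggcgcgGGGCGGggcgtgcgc
ARAF: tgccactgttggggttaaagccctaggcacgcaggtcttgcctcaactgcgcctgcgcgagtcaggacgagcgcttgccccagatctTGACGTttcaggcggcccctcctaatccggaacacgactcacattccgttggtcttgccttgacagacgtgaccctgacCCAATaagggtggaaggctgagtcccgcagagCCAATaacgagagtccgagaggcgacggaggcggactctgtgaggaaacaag
MAP2K1: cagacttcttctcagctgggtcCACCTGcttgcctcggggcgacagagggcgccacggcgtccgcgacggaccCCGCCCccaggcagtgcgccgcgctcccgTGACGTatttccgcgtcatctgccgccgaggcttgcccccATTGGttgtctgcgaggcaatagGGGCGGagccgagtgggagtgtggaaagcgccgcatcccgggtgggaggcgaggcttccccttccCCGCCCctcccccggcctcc

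The window of *NRAS* held 2 GC boxes and 1 CACGTG E-box. *HRAS* held 3 GC boxes, 1 CCAAT box and 1 ETS core, and its RefSeq start lies 1745 bases downstream of the outermost start in GENCODE 44. *ARAF* held no GC box but 2 CCAAT boxes and 1 CRE. *MAP2K1* held 3 GC boxes, 1 CCAAT box, 1 CAGGTG E-box and 1 CRE. No motif was in the windows of all 3 of *NRAS*, *HRAS* and *ARAF*, the GC box being in *NRAS* and *HRAS* and the CCAAT box in *HRAS* and *ARAF*. The window of *MAPK3*, which fell by less, held 6 GC boxes and 1 CACGTG E-box. None of the 7 main windows matched the TATA box (TATAAA), found in 10.7% of all windows. None matched the AP-1 site (TGANTCA) either, found in 6.57%. All 7 had more CpG sites than the median window, which had 11, from 14 in *BRAF* to 32 in *HRAS*, *MAP2K2* and *MAPK3*. Their GC content ran from 54.4% in *NRAS* to 80.4% in *MAPK3*, against a median of 58.0%. These matches describe letters in the windows only. The genes whose windows are not shown are given by their whole span. They are *BRAF* at chr7:140719327-140924929, *MAP2K2* at chr19:4090321-4124122 and *MAPK3* at chr16:30114105-30123506, all on the minus strand (GENCODE 44, GRCh38).

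In both lines the relative RNA level of *NRAS*, *HRAS* and *ARAF* was lower with corin. The falls ran from 1.59-fold for *HRAS* in 451Lu-R and *ARAF* in 1205Lu-R to 2.71-fold for *NRAS* in 1205Lu-R. *MAP2K1* rose 1.83-fold in 451Lu-R but 1.13-fold in 1205Lu-R, where *MAPK3* and *MAP2K2* fell by more than that, 1.26-fold and 1.14-fold. In 451Lu-R *BRAF* rose 1.21-fold, *MAP2K2* rose 1.07-fold and *MAPK3* fell 1.18-fold, so *MAPK3* was also lower in both lines. In 451Lu-R, 3 of the 7 were called higher and 4 lower with corin at an FDR under 0.05 (edgeR quasi-likelihood test, Benjamini-Hochberg adjustment over all genes tested). Of the 14530 genes tested 79.9% were called, 41.3% higher and 38.6% lower. None of the 7 passed both that FDR and a 2-fold change, which 35.6% of the genes tested did. In 1205Lu-R, 1 was called higher and 5 lower, where 78.3% of 14563 genes were called, 40.4% higher and 37.8% lower. *NRAS* alone there also passed a 2-fold change, and 9.8% of the genes tested were lower by that rule. With 7 and 6 of the 7 genes called, these counts were near the background share of genes called in each line.

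**Figure D1:**
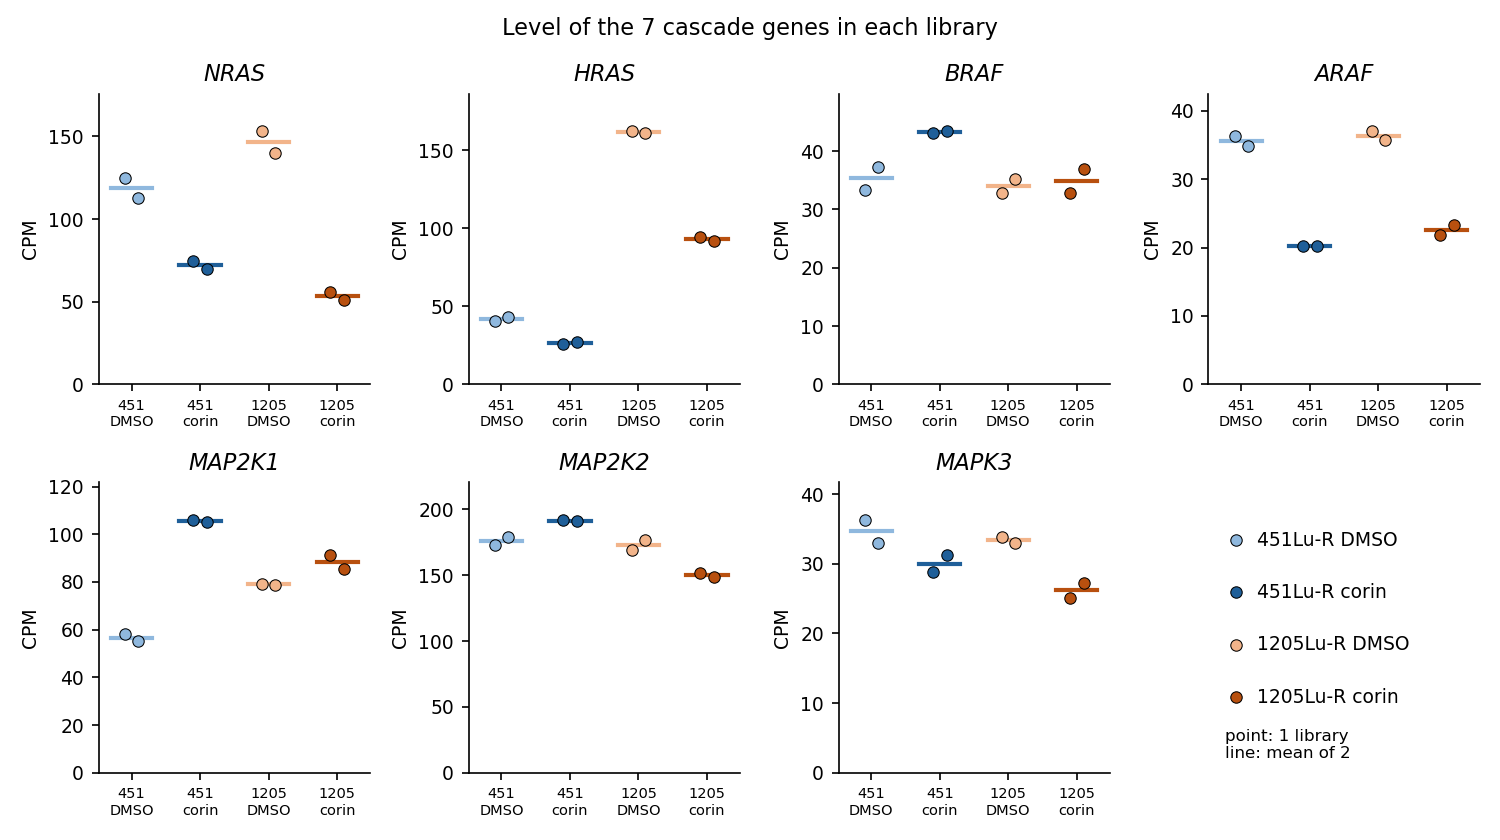
CPM of each of the 7 cascade genes in the 8 libraries, with 1 point per library and a line at the mean of the 2 libraries of each group. The corin points of NRAS, HRAS, ARAF and MAPK3 lie below the DMSO points of the same line. Those of MAP2K1 lie above them, and the 2 pairs of BRAF points of 1205Lu-R overlap.

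*NRAS* encodes a RAS GTPase that is recurrently mutated in melanoma. With the vehicle it stood at 125 and 113 CPM in 451Lu-R and 153 and 140 CPM in 1205Lu-R. With corin it was 74.8 and 69.6 CPM in 451Lu-R and 56.0 and 51.2 CPM in 1205Lu-R. In each line both corin libraries lay below both DMSO libraries, and 1205Lu-R was the higher line with DMSO and the lower line with corin. The means were 119 ± 8.16 CPM with DMSO and 72.2 ± 3.70 CPM with corin in 451Lu-R (SD, n = 2 each). In 1205Lu-R they were 146 ± 8.95 and 53.6 ± 3.37 CPM. The log2 fold change of *NRAS* was -0.75 in 451Lu-R (SE 0.052, edgeR FDR 6.83e-11) and -1.44 in 1205Lu-R (SE 0.052, FDR 1.58e-16). The interaction term over the 8 libraries gave a further fall of 1.66-fold in 1205Lu-R (log2 difference -0.73, SE 0.086, FDR 2.87e-07).

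*HRAS*, the other RAS GTPase followed, was the gene that differed most between the lines. Its level with DMSO was 40.5 and 43.0 CPM in 451Lu-R but 162 and 161 CPM in 1205Lu-R. With corin it was 26.1 and 27.1 CPM in 451Lu-R and 94.1 and 92.0 CPM in 1205Lu-R. Every library of 1205Lu-R was above every library of 451Lu-R, and within each line the corin libraries lay below the DMSO libraries. The fall with corin was 1.59-fold in 451Lu-R (log2 fold change -0.67, SE 0.077, edgeR FDR 1.3e-07) and 1.72-fold in 1205Lu-R (log2 fold change -0.78, SE 0.039, FDR 4e-14). The difference between these falls was -0.15 on the log2 scale (SE 0.08) and was not called (FDR 0.157). Between the lines *HRAS* was 3.82-fold higher in 1205Lu-R with DMSO (log2 fold change 1.94, SE 0.05, FDR 1.76e-21) and 3.49-fold higher with corin (log2 fold change 1.80, SE 0.061, FDR 5.57e-15).

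*BRAF* encodes the RAF kinase that PLX4032 inhibits. DMSO-treated cells had 33.4 and 37.3 CPM in 451Lu-R and 32.8 and 35.2 CPM in 1205Lu-R. With corin it was 43.2 and 43.4 CPM in 451Lu-R and 32.9 and 36.9 CPM in 1205Lu-R. The corin libraries of 451Lu-R lay above all 6 other libraries, whose values overlapped across their 3 groups. *BRAF* rose with corin in 451Lu-R by 1.21-fold (log2 fold change 0.27, SE 0.075, edgeR FDR 0.00294), a call that was lost with DESeq2 (log2 fold change 0.28, FDR 0.0592) and without DMSO replicate 1 (0.18, FDR 0.0656). In 1205Lu-R its log2 fold change was 0.06 (SE 0.079, FDR 0.507). The difference in response between the lines was -0.25 (SE 0.11, FDR 0.0643). Of the exonic bases of *BRAF*, 5.287% overlap *NDUFB2*, a gene on the opposite strand with between 734 and 1026 counts, and whether the counting used strand is not given in the sources used here. Its pseudogene copy *BRAFP1* had at most 1 count in a library.

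*ARAF*, the other RAF kinase followed, fell with corin in both lines. The DMSO libraries held 36.4 and 34.8 CPM in 451Lu-R and 37.0 and 35.8 CPM in 1205Lu-R. With corin it was 20.2 and 20.3 CPM in 451Lu-R and 21.9 and 23.3 CPM in 1205Lu-R. All 4 corin libraries lay below all 4 DMSO libraries, and the lines overlapped with DMSO. The fall was 1.79-fold in 451Lu-R (log2 fold change -0.84, SE 0.081, edgeR FDR 1.11e-08) and 1.59-fold in 1205Lu-R (log2 fold change -0.67, SE 0.081, FDR 1.5e-07). The difference in response was 0.13 (SE 0.11, FDR 0.37). The estimated counts behind these CPM ran, over the 7 genes and 8 libraries, from 196 for *ARAF* to 2186 for *MAP2K2*.

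*MAP2K1* encodes MEK1, a dual-specificity kinase that phosphorylates ERK. In DMSO it was measured at 58.0 and 55.2 CPM in 451Lu-R and 79.3 and 78.6 CPM in 1205Lu-R. With corin it was 106 and 105 CPM in 451Lu-R and 91.3 and 85.5 CPM in 1205Lu-R. The corin libraries lay above the DMSO libraries in both lines, and the order of the lines was reversed, 1205Lu-R being higher with DMSO and 451Lu-R with corin. The rise was 1.83-fold in 451Lu-R (log2 fold change 0.87, SE 0.049, edgeR FDR 2.61e-12). In 1205Lu-R it was 1.13-fold (log2 fold change 0.17, SE 0.048, FDR 0.0022), and that call was lost with DESeq2 (0.18, FDR 0.0686). The difference in response was -0.74 (SE 0.069, FDR 9.3e-09). A lncRNA on the opposite strand overlaps 20.458% of the exonic bases of *MAP2K1* but had at most 6.24 counts in a library, and *SNAPC5*, with up to 290.4 counts, overlaps 3.343% of them. The processed pseudogene *MAP2K1P1* had 0 counts in every library.

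*MAP2K2* encodes MEK2, the other MEK kinase. Vehicle-treated cells gave 173 and 179 CPM in 451Lu-R and 169 and 177 CPM in 1205Lu-R. With corin it was 192 and 191 CPM in 451Lu-R and 152 and 149 CPM in 1205Lu-R. The lines overlapped with DMSO and lay apart with corin, 451Lu-R above and 1205Lu-R below their DMSO libraries. *MAP2K2* rose 1.07-fold in 451Lu-R (log2 fold change 0.10, SE 0.033, edgeR FDR 0.0085), a call lost with DESeq2 (0.12, FDR 0.0986), with library size only (0.01, FDR 0.894) and without DMSO replicate 1 (0.06, FDR 0.211). In 1205Lu-R it fell 1.14-fold (log2 fold change -0.19, SE 0.037, FDR 0.000112). The difference in response was -0.33 (SE 0.052, FDR 1.75e-05), and with library size only it was -0.12 and was not called (FDR 0.0669).

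*MAPK3* encodes ERK1, the last kinase of the cascade. Its DMSO values were 36.3 and 33.0 CPM in 451Lu-R and 33.9 and 33.0 CPM in 1205Lu-R. With corin it was 28.8 and 31.2 CPM in 451Lu-R and 25.1 and 27.3 CPM in 1205Lu-R. The corin libraries lay below the DMSO libraries in each line, but in 451Lu-R by a gap smaller than the spread within either group. The log2 fold change was -0.24 in 451Lu-R (SE 0.08, edgeR FDR 0.0102) and -0.33 in 1205Lu-R (SE 0.081, FDR 0.000764). The call in 451Lu-R was lost with DESeq2 (-0.22, FDR 0.185), without DMSO replicate 1 (-0.18, FDR 0.0835) and without corin replicate 1 (-0.17, FDR 0.114). The difference between the lines was -0.13 (SE 0.11, FDR 0.353).

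**Figure D2:**
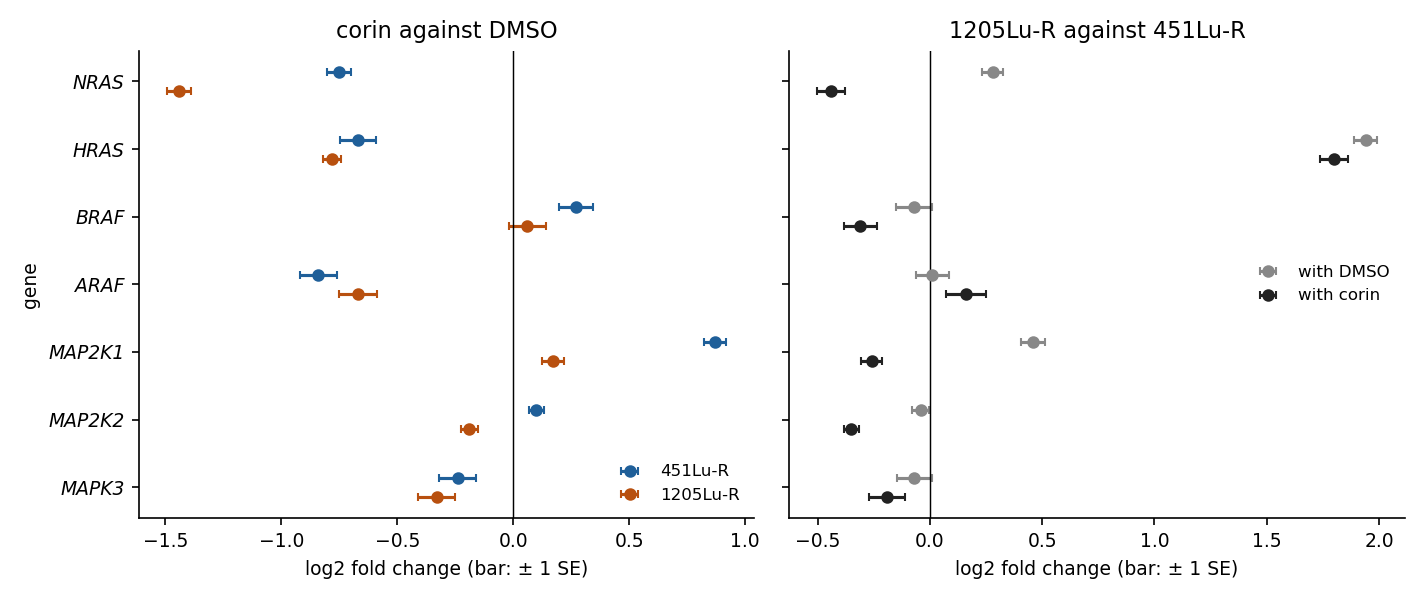
Log2 fold changes of the 7 cascade genes with bars of 1 SE, for corin against DMSO in each line on the left and for 1205Lu-R against 451Lu-R with each treatment on the right. NRAS at -0.75 and -1.44 and MAP2K1 at 0.87 and 0.17 lie apart between the lines on the left, and HRAS at 1.94 and 1.80 is the farthest from 0 on the right.

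The groups of corin and DMSO libraries did not overlap for 7 of 7 genes in 451Lu-R, where this held for 89.1% of the genes tested, and for 6 of 7 in 1205Lu-R, where it held for 88.6%. The difference in response was called for 3 of the 7 genes, *NRAS*, *MAP2K1* and *MAP2K2*, all lower in 1205Lu-R, where 49.7% of 16062 genes tested were called, 22.6% higher and 27.1% lower. For *HRAS*, *ARAF* and *MAPK3* the differences of -0.15, 0.13 and -0.13 were not called, which does not show that the lines responded alike.

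With DMSO the lines differed in *NRAS*, *HRAS* and *MAP2K1*, all 3 higher in 1205Lu-R, and the other 4 genes were not called. Of the 14104 genes tested in that comparison 82.5% were called, 41.0% higher and 41.5% lower, and 90.2% had groups that did not overlap, so the 3 of 7 called fell below the background. *HRAS* alone of the 7 also passed a 2-fold change, by which 19.6% of the genes tested were higher. *NRAS* was 1.21-fold higher in 1205Lu-R (log2 fold change 0.28, SE 0.047, edgeR FDR 8.14e-06) and *MAP2K1* 1.38-fold higher (log2 fold change 0.46, SE 0.054, FDR 2.7e-08). The log2 differences of *BRAF*, *ARAF*, *MAP2K2* and *MAPK3* were -0.07, 0.01, -0.04 and -0.07, with SE from 0.038 to 0.08. With corin the lines differed in 6 of the 7 genes, where 79.2% of 15363 genes tested were called, 39.0% higher and 40.2% lower. *HRAS* was the 1 gene called higher in 1205Lu-R, and also at 2-fold, as were 18.6% of the genes tested. The genes *NRAS* (-0.44), *BRAF* (-0.31), *MAP2K1* (-0.26), *MAP2K2* (-0.35) and *MAPK3* (-0.19) were called lower (log2 differences), while *ARAF* at 0.16 was not called (FDR 0.109). All 7 had groups that did not overlap with corin, as did 89.0% of the genes tested. These comparisons share their DMSO or corin libraries with the comparisons of treatment and are not independent of them.

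The levels of the genes were ranked against each other only per length, as CPM per kb of the union of a gene's exons in GENCODE 44. With DMSO, *NRAS* was the highest in 451Lu-R at 27.5 ± 1.89 CPM per kb (SD, n = 2), followed by *MAP2K2* at 22.6, *HRAS* at 17.2, *ARAF* at 10.4, *MAPK3* at 9.44 and *MAP2K1* at 8.76. In 1205Lu-R the highest was *HRAS* at 66.4 ± 0.341, followed by *NRAS* at 33.9, *MAP2K2* at 22.3, *MAP2K1* at 12.2, *ARAF* at 10.7 and *MAPK3* at 9.11. *BRAF* was the lowest in every group, from 1.45 to 1.85 CPM per kb, on a union of 23433 exonic bases. Its longest transcript has 9807 bases, on which it was from 3.47 to 4.42 CPM per kb and again the lowest. With corin *MAP2K2* led in 451Lu-R at 24.7, ahead of *NRAS* at 16.7 and *MAP2K1* at 16.3, whose libraries overlapped. In 1205Lu-R with corin *HRAS* led at 38.3, ahead of *MAP2K2* at 19.4, *MAP2K1* at 13.7 and *NRAS* at 12.4. The libraries of *NRAS* and *MAP2K1* in 451Lu-R with corin were the only neighbours in these orders that overlapped. Scaled by the longest transcript, *MAP2K2* led in 451Lu-R with both treatments, at 50.4 and 54.9 CPM per kb.

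The balance within each pair of related genes was followed as the share of the pair's estimated counts, which needs no scaling between libraries. The DMSO libraries of 451Lu-R gave *BRAF* 47.9% and 51.7% of the *BRAF* and *ARAF* counts, and the corin libraries 68.2% and 68.1%. The share in 1205Lu-R was 47.0% and 49.6% in DMSO libraries against 60.0% and 61.3% under corin. Both lines moved toward *BRAF*, by 18.4 and 12.4 percentage points, with no overlap between treatments. *MAP2K1* took 25.2% and 23.6% of the MEK counts in the DMSO libraries of 451Lu-R and 35.6% and 35.4% under corin. For 1205Lu-R the same share was 31.9% and 30.7% in DMSO libraries, and corin brought 37.5% and 36.4%. Both lines moved toward *MAP2K1*, by 11.1 and 5.63 points, and its share with corin differed between the lines by 1.45 points. *NRAS* took 75.5% and 72.5% of the *NRAS* and *HRAS* counts in the DMSO libraries of 451Lu-R and 74.1% and 72.0% under corin, and these overlapped. The DMSO libraries of 1205Lu-R were at 48.5% and 46.5% and the corin libraries at 37.3% and 35.8%, a move of -11.0 points toward *HRAS*. A 2-sided exact permutation test of 2 against 2 libraries cannot give a p under 0.333, the value it gave for every non-overlapping pair of groups, and it gave 0.667 for *NRAS* with corin in 451Lu-R and for *BRAF* between the lines with DMSO.

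**Figure D3:**
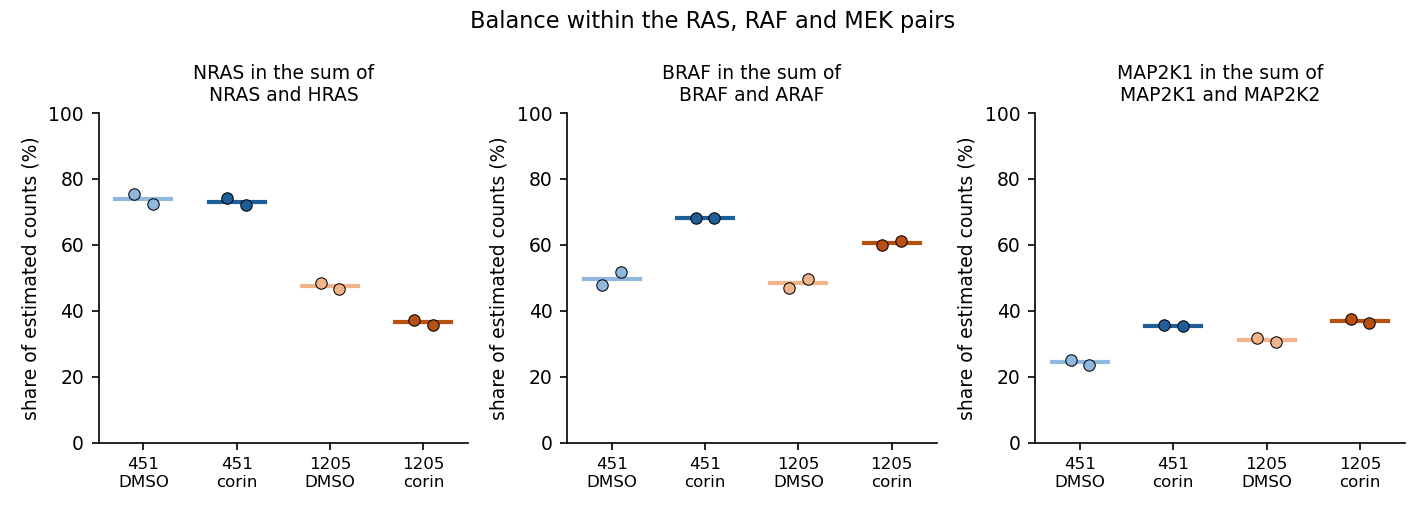
Share of NRAS, BRAF and MAP2K1 in the estimated counts of its pair, in percent, with 1 point per library and a line at the mean of 2. The BRAF and MAP2K1 shares are higher with corin in both lines, and the NRAS share is lower in 1205Lu-R, most so with corin at 36.5%.

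The genes around the cascade were taken from a list of 101 genes in 11 roles, 100 of which were in the table. In 451Lu-R 43 of 92 tested were called higher with corin and 26 lower, with a median log2 fold change of 0.11, where 41.3% of all genes tested were higher and 38.6% lower. In 1205Lu-R 34 of 93 were higher and 49 lower, with a median of -0.20, against 40.4% and 37.8% of all genes. The median of all genes tested was 0.03 in each line. The difference in response was called for 17 of 94 genes upward and 49 downward in 1205Lu-R, with a median of -0.34 where that of all genes was -0.01 and 22.6% and 27.1% of all genes were called. The counts by role rest on 2 to 16 genes each, in comparisons where 79.9% (451Lu-R) and 78.3% (1205Lu-R) of all genes tested were called, and no role was tested against other genes. Genes with no count in a group are given below by lower bounds set by 3 counts over that group, and the medians of the list with such genes at their bounds were again 0.11 and -0.20. A few genes below fall outside the rule for named genes and were named after their values were seen, to complete counts of 5 or fewer.

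Among exchange factors, which load RAS with GTP, 3 of 6 tested rose in 451Lu-R and none fell. They were *RASGRP1*, *RASGRP2* and *RASGRF1*, and the same 3 of 7 rose in 1205Lu-R, where *SOS1*, *SOS2* and *RASGRF2* fell. *RASGRP2*, which acts mainly on the relative RAP1, was at 0 in all 4 DMSO libraries. Its corin libraries held 24 and 34 counts in 451Lu-R (at least 19.9-fold higher) and 35 and 37 in 1205Lu-R (at least 23.7-fold higher). *RASGRP1* went from 4 counts in the DMSO libraries of 451Lu-R to 136 with corin, a ratio of 34.9 (95% counting interval from 13.3 to 130.0), and from 3 to 77 in 1205Lu-R, a ratio of 25.4 (from 8.36 to 126.0). The log2 fold changes of *SOS1* and *SOS2* in 1205Lu-R were -0.57 and -0.40, and in 451Lu-R, at 0.12 and 0.00, neither was called. *RASGRF2* separated the lines, with 0 counts in both DMSO libraries of 451Lu-R and 985 and 883 in 1205Lu-R, at least 643-fold higher.

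GTPase-activating proteins switch RAS off, and 6 of the 8 tested fell with corin in 1205Lu-R, as did 37.8% of all genes there, while *RASA2* and *RASA4* rose. The counts in 451Lu-R were 3 lower and 2 higher. *RASA3* went from 66.4 ± 2.29 to 30.5 ± 0.842 CPM in 1205Lu-R (log2 fold change -1.11, SE 0.065, edgeR FDR 7.82e-13). It also fell in 451Lu-R, from 74.4 to 57.8 CPM (-0.39, FDR 3.33e-06). *RASA1* was 2.15-fold higher in 1205Lu-R than in 451Lu-R with DMSO (log2 fold change 1.10, FDR 5.85e-15). SPRED and Sprouty proteins are feedback inhibitors of the cascade, and of 7 tested, corin raised 4 and lowered 1 in 451Lu-R and raised 2 and lowered 4 in 1205Lu-R. *SPRY3* rose in both, from 1.98 to 12.5 CPM in 451Lu-R (log2 fold change 2.65, FDR 8.26e-10) and from 0.479 to 3.61 CPM in 1205Lu-R (2.92, FDR 3.06e-06). *SPRED3* rose from 0.311 to 3.10 CPM in 451Lu-R (3.21, FDR 1.25e-06) and fell from 20.4 to 11.9 CPM in 1205Lu-R.

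Adaptors link receptors to RAS, with 4 of 10 higher and 3 lower in 451Lu-R and 5 of 9 higher and 2 lower in 1205Lu-R. *GAB2* fell from 304 to 120 CPM in 451Lu-R (log2 fold change -1.37, edgeR FDR 1.44e-18), where it was 67.7-fold higher than in 1205Lu-R with DMSO (FDR 5.99e-29). *GAB1* and *SHC1* also fell in that line, and the 2 that fell in 1205Lu-R were *SHC1* and *PTPN11*. *SHC1* went from 142 to 64.6 CPM in 451Lu-R (-1.16, FDR 1.75e-14). Its means in 1205Lu-R were 377 and 133 CPM (-1.49, FDR 4.66e-20). *SHC3* rose in both lines, by 1.45 (FDR 1.95e-06) and 2.02 (FDR 7.85e-10) on the log2 scale. *SHC4* went from 2.35 to 17.7 CPM in 1205Lu-R (2.92, FDR 4.95e-13), and its means in 451Lu-R were 5.38 and 5.66 CPM. Of the 9 genes for lipid modification of RAS, which anchors it to the membrane, 2 rose in each line, and the number that fell was 6 in 451Lu-R and 7 in 1205Lu-R. *ZDHHC9*, which palmitoylates RAS, was 3.80-fold higher in 1205Lu-R with DMSO (FDR 2.23e-16).

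RAS relatives moved in both directions, 5 up and 2 down of 9 in 451Lu-R and 3 up and 5 down in 1205Lu-R. *MRAS*, whose protein forms a phosphatase complex that activates RAF, fell from 57.6 to 22.7 CPM in 451Lu-R (log2 fold change -1.37, edgeR FDR 6.25e-12), whereas its means in 1205Lu-R were 14.3 and 28.3 CPM. *RRAS* rose from 3.58 to 8.53 CPM in 451Lu-R (1.22, FDR 1.12e-05) and was 8.17-fold higher in 1205Lu-R with DMSO (FDR 4.51e-16). The genes of RAF activation, chaperones and 14-3-3 proteins included 8 called higher and 4 lower of 15 in 451Lu-R, but 3 higher and 11 lower of 16 in 1205Lu-R. The 3 that rose in 1205Lu-R were *HSP90AA1*, *YWHAG* and *SFN*. *HSP90AA1*, the stress-inducible HSP90 that holds RAF kinases as clients, rose from 2110 to 5320 CPM in 451Lu-R and from 1220 to 2460 CPM in 1205Lu-R (log2 fold changes 1.31 and 1.02, FDR 7.97e-23 and 1.06e-25). *YWHAG*, a 14-3-3 protein, rose from 287 to 626 CPM in 451Lu-R (1.10, FDR 4.66e-19).

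Scaffolds hold RAF, MEK and ERK together, with 9 of 14 higher and 3 lower in 451Lu-R and 7 higher and 5 lower in 1205Lu-R. *KSR1*, which binds RAF and MEK, rose in both lines. It went from 4.82 to 23.6 CPM in 451Lu-R (log2 fold change 2.26, edgeR FDR 1.6e-11). In 1205Lu-R it went from 4.64 to 22.9 CPM (2.31, FDR 9.49e-13). Its relative *KSR2* was counted 0 times in either DMSO library of 451Lu-R, while its corin libraries held 91 and 73 counts, at least 56.1-fold more, and it went from 1.01 to 8.19 CPM in 1205Lu-R (3.03, FDR 8.63e-10). *IQGAP2* rose from 0.749 to 17.4 CPM in 451Lu-R (4.50, FDR 3.67e-13) and from 22.1 to 59.8 CPM in 1205Lu-R (1.45, FDR 5.64e-14). With DMSO it was 28.9-fold higher in 1205Lu-R (FDR 1.48e-16). The 3 scaffolds that fell in 451Lu-R were *IQGAP3*, *PXN* and *LAMTOR3*, and these fell in 1205Lu-R too, with *IQGAP1* and *PEA15*. *IQGAP3* went from 30.3 to 6.13 CPM in 451Lu-R (-2.31, FDR 4.68e-13). Its means in 1205Lu-R were 61.1 and 19.4 CPM (-1.64, FDR 1e-14). *PXN* fell from 482 to 196 CPM there (-1.28, FDR 2.02e-19). Among the other kinases that can act above MEK, *MAP3K8* rose from 0.836 to 3.51 CPM in 451Lu-R (2.03, FDR 3.49e-05). It also rose in 1205Lu-R, from 0.331 to 1.43 CPM (2.06, FDR 0.00247).

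Of the kinases below ERK, corin raised 4 of 7 and lowered 1 in 451Lu-R and raised 3 and lowered 4 in 1205Lu-R. *MKNK2*, a kinase of the translation factor eIF4E, rose from 45.2 to 142 CPM in 451Lu-R and from 44.3 to 148 CPM in 1205Lu-R (log2 fold changes 1.62 and 1.75, edgeR FDR 7.2e-16 and 9.18e-19). *MKNK1* rose from 7.67 to 20.3 CPM in 1205Lu-R (1.42, FDR 9.13e-10) and from 24.2 to 42.0 CPM in 451Lu-R (0.77, FDR 1.8e-08). *RPS6KA4*, a nuclear kinase, fell from 63.1 to 24.9 CPM in 451Lu-R (-1.37, FDR 8.06e-13) and from 111 to 68.9 CPM in 1205Lu-R (-0.68, FDR 6.04e-12). Its relative *RPS6KA5* was 13.4-fold higher in 451Lu-R than in 1205Lu-R with DMSO (FDR 9.49e-18). Of the 5 tested genes for ERK5 and atypical ERK kinases, 451Lu-R had 1 higher and 3 lower with corin and 1205Lu-R had 2 of each. *MAPK4*, an atypical ERK, was at 5 and 2 counts in the DMSO libraries of 451Lu-R against 152 and 131 in its corin libraries (5.30, FDR 1.24e-12). In 1205Lu-R its counts were 0 in each DMSO library against 60 and 59, at least 39.2-fold higher. *MAPK7*, which encodes ERK5, fell from 16.3 to 7.34 CPM in 1205Lu-R (-1.14, FDR 8.17e-08) and from 27.2 to 16.7 CPM in 451Lu-R (-0.73, FDR 5.2e-07). *MAP2K5*, its kinase, was 2.01-fold higher in 451Lu-R than in 1205Lu-R with DMSO (FDR 6.42e-07).

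**Figure D4:**
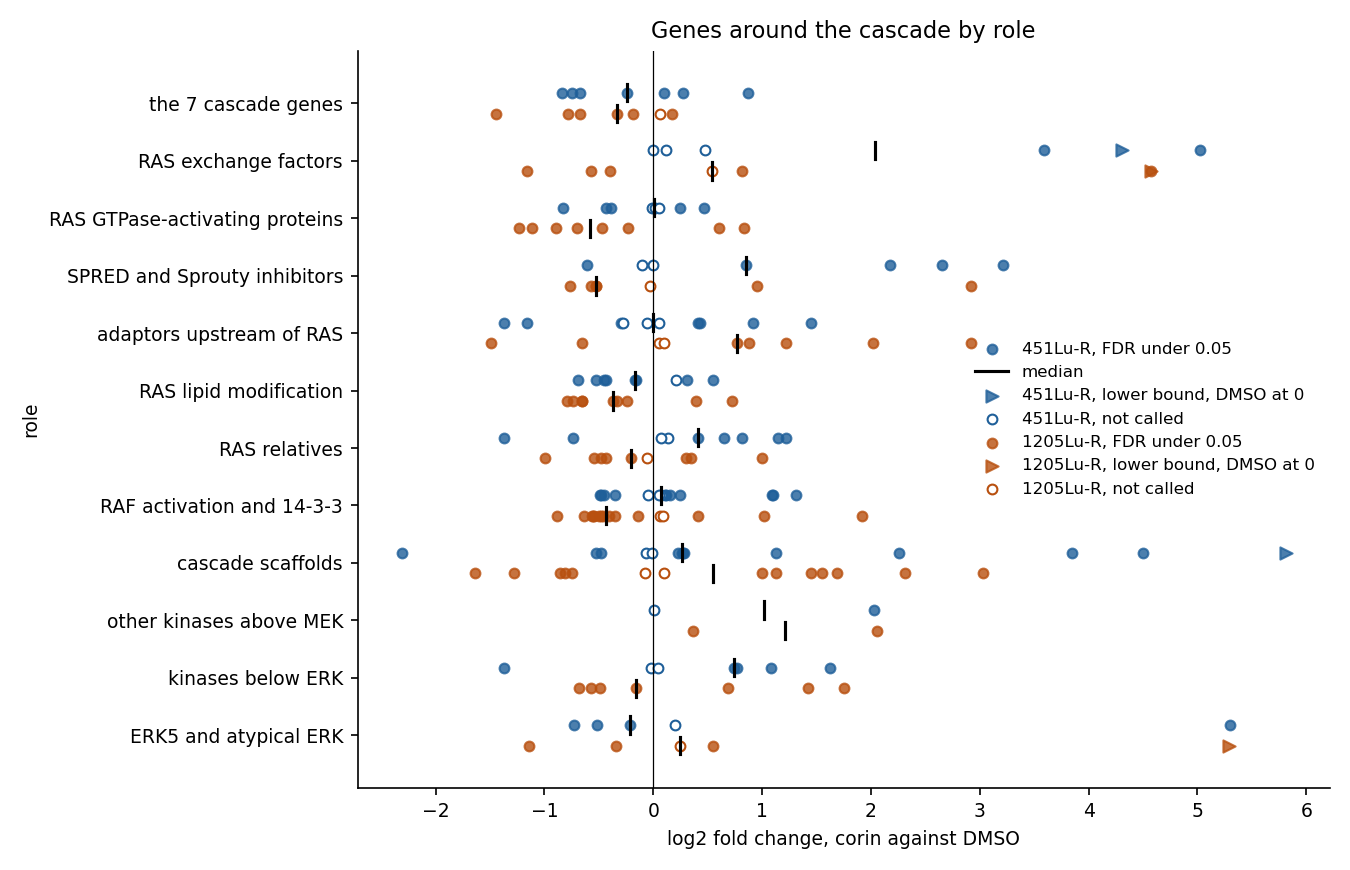
Log2 fold change with corin for the 7 cascade genes and for the listed genes around them by role, with 1 point per tested gene and line, filled at an FDR under 0.05, and triangles at the lower bound for genes with no count with DMSO. The 7 cascade genes lie between -1.44 and 0.87. Genes of several roles reach farther to the right, up to KSR2 at its lower bound of 5.81 and MAPK4 at 5.30, both in 451Lu-R. Farther to the left lie SHC1 at -1.49 in 1205Lu-R and IQGAP3, at -1.64 there and -2.31 in the other line.

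For each of the 7 genes, the 2 genes whose log2 CPM correlated best with it over the 8 libraries were sought among 13854 genes. These genes had a mean of 1 CPM or more. The 8 libraries form 4 groups, so Pearson's r mainly compares 4 group means, and it is given as a description. It takes no account of the level of a gene or the size of its changes. *NRAS* was matched best by *GET3* (r = 0.994) and *AP3D1* (0.993), and *HRAS* by *MED1* and *SSR3* (0.999 each). *BRAF* had the loosest matches, *TEX9* (0.96) and *SPTLC3* (0.958). *ARAF* was matched by *PYURF* (0.999) and *MRPL12* (0.998), and *MAP2K1* by *C14orf119* (0.996) and *IL15* (0.993). *MAP2K2* was matched by *AGTRAP* (0.986) and *MED23* (0.983), and *MAPK3* by *FBXO17* (0.975) and *SPPL2A* (0.972). The mean of *PYURF* went from 89.0 to 46.1 CPM with corin in 451Lu-R and from 94.3 to 52.1 CPM in 1205Lu-R, a pattern of levels close to that of *ARAF*.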

How the data were processed

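Per the labels and methods, paired-end reads were trimmed (Trimmomatic) and assigned to GENCODE 32 transcripts by Salmon, with gene sums used for the authors' DESeq2 comparisons. Tool versions are not given in the sources used here. The deposited values are expected counts, that is Salmon estimates summed by gene and not normalized, for the 8 DMSO and corin libraries. Their tables for PLX4032 plus corin hold the authors' own log2 fold changes and adjusted p-values and were not used.

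Gene identifiers were matched to GENCODE 44, which names 34052 of 34228 genes and gave exon lengths and overlaps. Promoter windows came from RefSeq (GRCh38.p14). Counts were rounded and tested with edgeR 4.0.16 in R 4.3.3 (filterByExpr, TMM, glmQLFit and glmQLFTest, 2-sided, Benjamini-Hochberg adjustment over all genes). Each pairwise comparison was fitted on its 4 libraries, the difference in response on all 8. The SE given for edgeR was back-calculated from the test, as the size of the log2 fold change over the square root of the F statistic. The CPM of single genes were TMM-scaled, with a prior count of 2 for log2 CPM, while the number of genes reaching 1 CPM used the library total alone. Alternatives were DESeq2 1.42.0, RLE or library size scaling, other filters, a replicate block, 1 fit of all libraries and leaving out each library. Levels per length and pair shares were recomputed with the longest transcript or per length. Fits that leave out a library assume that the lone library of its group varies like the others.

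The 7 genes and the lists were chosen with earlier results of these data known. Other named genes were, per role, line and comparison, at most 2 genes, ranked by size of change, that had an FDR under 0.05, a change of 2-fold or more and a mean of at least 1 CPM (at most 1 per role between the lines with DMSO). Some genes that the rule or lists include are not reported here. Replicate counts spread slightly more than counting error alone (chi-square over its degrees of freedom, 1.34 to 1.40), and intervals cover counting error only. In simulated counts for corin in 451Lu-R (14123 genes), edgeR recovered 51 of 67 genes changed 1.5-fold and 67 of 67 changed 2-fold, with 10 false calls. The simulations of the other comparisons gave from 9 to 20 false calls, and for the difference in response 39 of 67 genes changed 1.5-fold were recovered. Only 200 genes were changed in each simulation, where 79.9% of the genes tested were called for corin in 451Lu-R, so these rates need not hold for the data.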

Additional observations from a re-analysis of the deposited data

Results flagged for a closer look

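For 3 of the 7 cascade genes the response to corin differed between the lines by the interaction term (1205Lu-R minus 451Lu-R, edgeR over 8 libraries). The log2 differences were -0.73 for *NRAS* (FDR 2.87e-07), -0.74 for *MAP2K1* (FDR 9.3e-09) and -0.33 for *MAP2K2* (FDR 1.75e-05). The same test was past the threshold for 13 of 22 genes around the cascade, in a comparison where 49.7% of all genes tested were called. The 22 are those picked by the rule for named genes for their response to corin.

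Responses lower in 1205Lu-R were those of *RASA3* at -0.76 (FDR 1.06e-07), *SPRED3* at -4.00 (FDR 1.6e-08), *RRAS* at -1.79 (FDR 2.41e-07), *YWHAG* at -0.73 (FDR 3.62e-13), *HSP90AA1* at -0.32 (FDR 4.98e-15), *IQGAP2* at -3.09 (FDR 1.09e-09) and *MAPK7* at -0.44 (FDR 0.0217). *KSR2* gave -6.35 (FDR 0.000109), a fitted value that rests on 2 libraries with 0 counts and depends on the prior count. Responses higher in 1205Lu-R were those of *SHC4* at 2.84 (FDR 5.12e-09), *GAB2* at 2.55 (FDR 1.08e-11), *MRAS* at 2.33 (FDR 3.46e-12), *RPS6KA4* at 0.65 (FDR 3.86e-07) and *MKNK1* at 0.61 (FDR 0.000961). Among these genes, *GAB2*, *MRAS*, *RRAS* and *SPRED3* moved in opposite directions in the 2 lines, each called in both. Groups of 2 libraries were too small to look for a library far from the others.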

How the results depend on the processing

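Of 406 recomputed log2 fold changes of the 7 genes, 376 kept their direction and side of the threshold, 14 lost a call, 8 gained one and 8 turned sign, all 8 among values not called. The falls of *NRAS*, *HRAS* and *ARAF* in both lines and the rise of *MAP2K1* in 451Lu-R were called under every alternative.

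With DESeq2 the calls higher in 451Lu-R went from 3 to 1, since *BRAF* (0.28) and *MAP2K2* (0.12) were lost, as was the lower call of *MAPK3* (-0.22). In 1205Lu-R they went from 1 to 0 with *MAP2K1* at 0.18, and *MAPK3* between the lines with corin was lost at -0.19. With library size only, the median of all genes moved to -0.07 in 451Lu-R, 0.11 in 1205Lu-R, 0.20 in the difference in response, -0.12 between the lines with DMSO and 0.08 with corin, and the share of called genes that were higher in the difference went from 45.4% to 64.0%. *MAP2K2* in 451Lu-R was then 0.01 and not called. In the difference in response, *HRAS* was 0.06, *MAPK3* 0.08, *MAP2K2* -0.12 and not called, and *ARAF* 0.34 and called, so that 1 gene was higher. Between the lines with DMSO, *ARAF* was -0.09, and *BRAF* (-0.18), *MAP2K2* (-0.15) and *MAPK3* (-0.18) were called, 3 lower in all. With corin 2 were higher, with *ARAF* called at 0.25, and *MAPK3* was lost at -0.10.

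Leaving out 1 library in turn gave log2 fold changes in 451Lu-R from 0.18 to 0.35 for *BRAF*, 0.06 to 0.13 for *MAP2K2* and -0.31 to -0.17 for *MAPK3*, and without DMSO replicate 1 a single gene, *MAP2K1*, was called higher (from 1 to 3 over the libraries). *BRAF* ran from -0.03 to 0.13 in 1205Lu-R and from -0.34 to -0.15 in the difference, where it was called without 451Lu-R DMSO replicate 2 (-0.34) and without 1205Lu-R corin replicate 2 (-0.32). Between the lines with DMSO, *BRAF* ran from -0.17 to 0.00 and *ARAF* from -0.02 to 0.05, and with corin *MAPK3* ran from -0.26 to -0.13, lost without 451Lu-R corin replicate 2 (-0.15) or 1205Lu-R corin replicate 1 (-0.13). The cause of these changes was not tested.

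With the replicate block, *BRAF* in the difference in response was called at -0.26 (FDR 0.0463), and the block changed no other call. Deviations of same-numbered libraries correlated at -0.015 in 451Lu-R, 0.0059 in 1205Lu-R, 0.051 with DMSO and -0.024 with corin. The deviations are mostly counting error, so these correlations cannot show whether same-numbered libraries share a culture or batch.

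Scaled by the longest transcript, the mean level over the 8 libraries was 41.6 CPM per kb for *HRAS*, 3.76 for *BRAF*, 12.1 for *ARAF*, 16.9 for *MAP2K1*, 49.5 for *MAP2K2* and 12.1 for *MAPK3*. Pair shares of counts per length (451Lu-R DMSO and corin, then 1205Lu-R DMSO and corin) were 61.6%, 60.4%, 33.7% and 24.4% for *NRAS*, 12.6%, 23.8%, 12.0% and 18.3% for *BRAF*, and 27.9%, 39.8%, 35.4% and 41.3% for *MAP2K1*. Depth was from 9516687 to 11797788 counts a library with 2 libraries a group. In simulated counts edgeR missed part of the 1.5-fold changes, and smaller changes, such as those of *BRAF*, *MAP2K2* and *MAPK3*, were not simulated.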
